A study of Mus musculus with 5 samples.

Results

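The library made at -160 mmHg was set against the libraries made at -80, -120 and -200 mmHg, to find what set 1 strength of negative pressure apart from the others. It is 1 of 5 libraries, all from wild-type mice, and the cells (BMSCs) were mesenchymal stem cells, the stromal cells that grow out of bone marrow in culture. Every group was cultured for 72 h, a vacuum pump held the pressure for 48 h, and 0 mmHg served as the control. For each gene the difference was log2(FPKM + 1) at -160 mmHg minus its mean over the other 3 pressure libraries, where FPKM is the number of fragments corrected for exon length and library size. Of 55401 genes in the table, 7524 reached a mean of 5 FPKM across the 4 pressure libraries and are called measured here, and 7190 of them were protein coding. The control took no part in the difference and is given beside it. With 1 library per pressure there is no replicate check and no p-value, and the pressure cannot be told apart from the single culture, extraction and library behind it.

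The total was 17012586 reads at -160 mmHg, between 16600622 and 18056998 for the other pressures. Of 18 stromal surface markers 10 were measured, and in the -160 mmHg library Pdgfra stood at 70.5 FPKM, Ly6a, which encodes Sca-1, at 737 FPKM and Cxcl12 at 129 FPKM. Their median difference was 0.01, with 3 above and 2 below the range of the other pressures. Over all measured genes 23.8% lay above that range and 17.6% below it, so these counts do not set the list apart. Thy1 and Nt5e, which mark many stromal cultures, were low in every library, with 1.001 and 0.875 FPKM at -160 mmHg. Markers of some other cells were detected, each list through few genes. Of 20 macrophage, 14 granulocyte and 11 osteoclast markers, 3, 2 and 4 reached a mean of 1 FPKM across the 4 pressures. In the 4 pressure libraries macrophage markers summed to 69.0 to 76.4 FPKM (29.2 in the control) and granulocyte markers to 24.3 to 31.5 FPKM (9.10 in the control), while osteoclast markers summed to 94.7 FPKM in the control and at most 10.4 FPKM under pressure. The summed FPKM of 13 lymphoid markers lay between 0.0760 and 0.319 in the 5 libraries and that of 11 epithelial markers between 0.541 and 1.16, and neither list had a measured member. In bulk RNA, fewer cells of a type and less RNA per cell cannot be told apart.

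A dividing cell first copies its DNA, which needs the MCM helicase, polymerases and a supply of deoxynucleotides, and then separates the copies with cyclin B, CDK1, mitotic kinases, kinetochores and kinesins. Transcripts of the replication genes are driven mainly by E2F factors around the start of S phase. Those of the mitotic genes are held down by the DREAM complex in resting cells and are switched on by B-MYB and FOXM1 in G2. When oxygen is short, hypoxia-inducible factors (HIF) raise the enzymes of glycolysis and genes such as Bnip3 and Pdk1, which turn cells away from mitochondrial respiration.

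Few genes set the -160 mmHg library apart, and most of the protein-coding ones that were higher belong to cell division. A gene was called when it differed by at least 0.5 on the log2 scale and lay outside the range of the other 3 pressures. By this rule 25 of 7524 genes were higher (0.332%) and 28 were lower (0.372%). Among the 7190 protein-coding genes, 15 were higher (0.209%) and 3 were lower (0.0417%). The same rule, applied to each other library against its 3 companions, called 1 coding gene higher (0.0139%) and 4 lower (0.0556%) at -80 mmHg. It called none at -120 mmHg (0% in either direction), and 2 higher (0.0278%) and 0 lower (0%) at -200 mmHg. Over all 7524 genes the counts were less far apart. The -80 mmHg library had 18 called higher (0.239%) and 15 called lower (0.199%). The -120 mmHg library had 11 called higher (0.146%) and 21 called lower (0.279%). For -200 mmHg the rule gave 18 higher (0.239%) against 10 lower (0.133%). The spread over all measured coding genes gave another order. The standard deviation of their differences was lowest for -160 mmHg, at 0.113, and 0.123 to 0.127 for the other pressures. In that library 1724 coding genes lay above the range, within 1688 to 1953 for the others. Below it lay 1228, fewer than their 1827 to 2114. Among pairs of libraries, -160 with -200 mmHg had the smallest spread (0.129, other pairs 0.143 to 0.165). These comparisons share their libraries and are not independent. Of the 15 coding genes higher at -160 mmHg, 8 are on the list for mitosis and the kinetochore, 3 on the list for G1/S and DNA replication, and 1 on the list for nucleotide supply. The other 3 are Ndufa4l2, Tfrc and Crabp1.

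**Figure D1:**
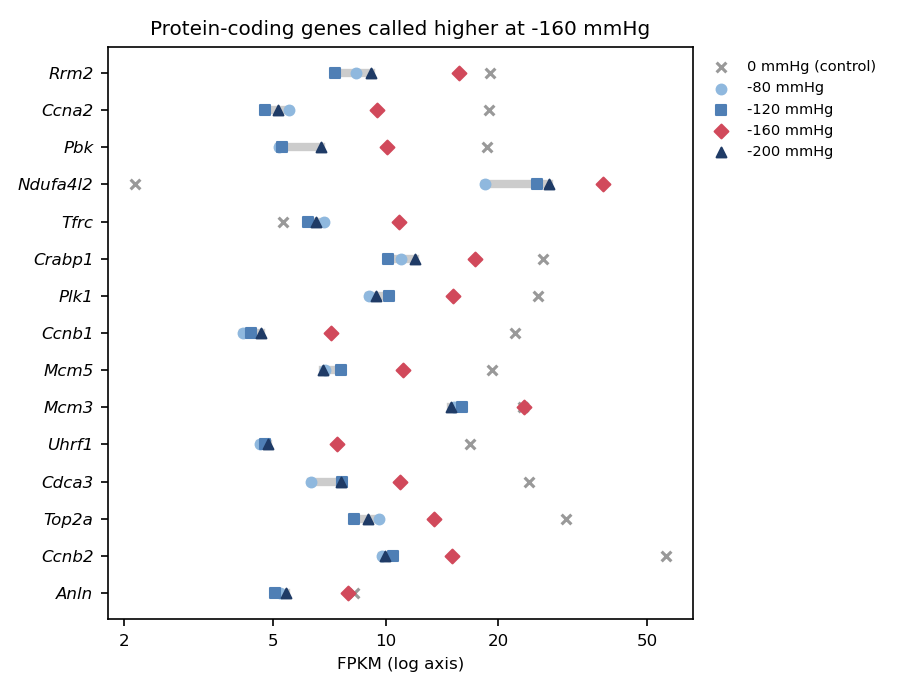
FPKM (log axis) of the 15 protein-coding genes called higher at -160 mmHg, 1 point per library, with a grey bar over the range of the other 3 pressures. Every -160 mmHg point lies to the right of its bar, and in 12 of the 15 genes the control lies farther right still.

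The widest upward difference in a coding gene was that of Rrm2, the small subunit of the ribonucleotide reductase that makes deoxynucleotides (chromosome 12, 24708241 to 24714146, GRCm38.p6 positions). Its level was 15.7 FPKM at -160 mmHg against 8.31, 7.33 and 9.13 FPKM at -80, -120 and -200 mmHg, and 18.9 FPKM in the control. The -160 mmHg library was thus close to the control and apart from the other pressures, which lay close together. The difference was 0.85, and the ratio of reads to those pooled from the other 3 libraries was 1.89 (95% counting interval 1.72 to 2.07). Rrm1, the large subunit, named after its values were seen, showed a smaller difference of 0.27. Of 27 genes of nucleotide supply 23 were measured, their median difference was 0.11, and 13 lay above and 1 below the range of the other pressures. Over all measured genes the median was 0.01, with 23.8% above that range and 17.6% below it.

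The mitotic genes as a list stood highest. Of 72 genes 28 were measured, 8 were called higher and none lower, and 27 lay above the range of the other pressures. The exception was Cdc25b, the phosphatase that activates CDK1, at 6.29 FPKM between 5.44 and 8.46 FPKM at -200 and -80 mmHg. The median difference was 0.38 at -160 mmHg. The list's own medians at -80, -120 and -200 mmHg, each against its 3 companions, were -0.09, -0.14 and -0.16. A list that is high in 1 library is set lower in the others by this comparison, so these values are no separate result. Because the limit of 5 FPKM counts the -160 mmHg library itself, 3 of the 28 genes passed only through it. Of the 25 with at least 5 FPKM over the other 3 libraries, 24 lay above their range and 7 were called.

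A lower limit shows more of the list. Of 68 mitotic genes that reached a mean of 1 FPKM, 66 lay above the range of the other pressures at -160 mmHg and none below it, while 25.2% and 18.5% of all 12101 genes at that limit did so. The 2 genes within the range were Cdc25b and Ccnf, the cyclin F subunit of a ubiquitin ligase. Summed FPKM of the 72 genes was 476 at -160 mmHg, and 345, 338 and 344 at the other pressures. The control stood at 1028. Of the 66 genes above the range, 64 were higher still in the control.

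**Figure D2:**
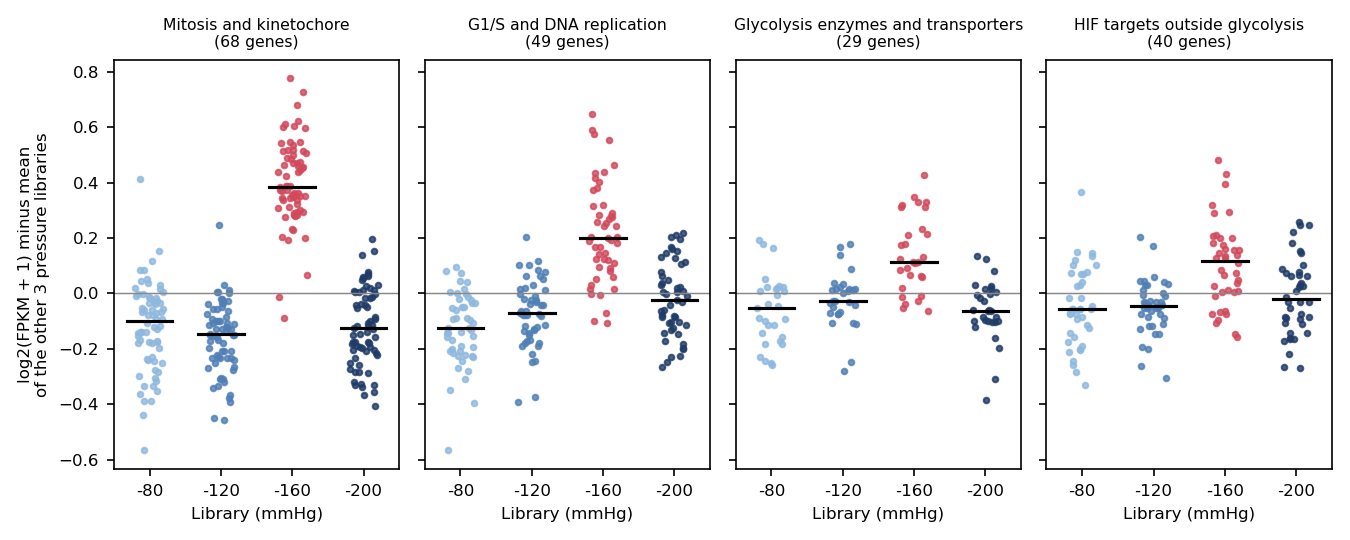
Difference of each gene that reached a mean of 1 FPKM from the mean of the other 3 pressure libraries (log2 scale), for 4 gene lists and each pressure library, with black lines at the medians. In the mitosis panel nearly all -160 mmHg points lie above 0, with a median of 0.38, and the other 3 libraries lie mostly below 0.

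The cyclins and the kinase they activate show the size of the shift. Ccna2, the cyclin of S phase and G2, stood at 9.50 FPKM at -160 mmHg and at 5.52, 4.77 and 5.14 FPKM at -80, -120 and -200 mmHg, with 18.9 FPKM in the control. Ccnb1, the cyclin that drives entry into mitosis, stood at 7.15 FPKM against 4.15, 4.36 and 4.65 FPKM, with 22.2 FPKM in the control. The other 3 pressures lay close together in both genes, and the differences were 0.78 and 0.60. Cdk1, their catalytic partner, stood at 16.04 FPKM against 11.6, 13.3 and 12.6 FPKM, with 42.3 FPKM in the control. Its difference of 0.34 was outside the range of the other pressures and under the size rule. All 4 genes of the group of mitotic cyclins and Cdk1 lay above that range, Ccnb2 (difference 0.54) being the fourth, but Ccnb1 passed the limit of 5 FPKM only through the -160 mmHg library.

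The mitotic kinases behaved alike. Plk1, the polo-like kinase of spindle assembly and mitotic exit, stood at 15.1 FPKM against 9.05, 10.2 and 9.44 FPKM at -80, -120 and -200 mmHg, with a difference of 0.61. Pbk, a kinase of dividing cells, stood at 10.1 FPKM against 5.20, 5.28 and 6.71 FPKM, with a difference of 0.73. All 8 mitotic kinases with at least 1 FPKM were above the range of the other pressures, with differences from 0.21 in Ttk to 0.73 in Pbk. So were all 11 kinetochore and checkpoint genes (median 0.38), all 8 kinesins (median 0.35) and all 5 condensin subunits (median 0.36), groups that were picked after the values were seen.

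Top2a, the topoisomerase that untangles replicated DNA, stood at 13.4 FPKM at -160 mmHg against 9.60, 8.23 and 8.95 FPKM at -80, -120 and -200 mmHg. Its 2062 reads at -160 mmHg gave a ratio of 1.51 (95% counting interval 1.43 to 1.59). Cdca3, which marks proteins for degradation at mitotic entry, had a difference of 0.55, and Anln, which encodes the actin binder anillin of the cleavage furrow, one of 0.52. Mki67, the antigen used to score dividing cells, was just under the limit with a mean of 4.996 FPKM. It stood at 7.13 FPKM against 4.37, 4.20 and 4.29 FPKM, a difference of 0.62 with a counting interval of 1.55 to 1.79 around a ratio of 1.67.

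Replication genes followed with smaller differences. Of 55 genes 27 were measured, 3 were called higher and none lower, and 20 lay above and 1 below the range of the other pressures. The median was 0.17 at -160 mmHg, and -0.11, -0.08 and 0.00 at -80, -120 and -200 mmHg. Of the 27 genes 2 passed the limit only through the -160 mmHg library, and of the 25 with at least 5 FPKM over the other 3 libraries 19 lay above their range and 2 were called. The gene below the range was Pold2, a subunit of DNA polymerase delta, with a difference of -0.11. The replication-dependent histones, the core packaging proteins made in S phase, had 4 measured members of 34, with 1 above and 2 below the range and a median of -0.05. Among them Hist1h4i differed by 0.43 and Hist1h4h by -0.40.

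The MCM helicase, the ring that unwinds DNA at the fork, stood out among the replication genes. Mcm5 was at 11.1 FPKM at -160 mmHg against 6.88, 7.57 and 6.78 FPKM at -80, -120 and -200 mmHg, with 19.2 FPKM in the control. Mcm3 was at 23.4 FPKM against 15.2, 15.97 and 14.9 FPKM, which is the level of the control at 23.2 FPKM. All 6 helicase genes lay above the range of the other pressures, with differences of 0.27 in Mcm2 and Mcm7, 0.44 in Mcm6, 0.46 in Mcm4, 0.58 in Mcm3 and 0.59 in Mcm5. Uhrf1, which carries DNA methylation through replication, was the third called gene of the list, at 7.43 FPKM against 4.61, 4.75 and 4.85 FPKM, and passed the limit only through the -160 mmHg library.

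Other replication genes differed to various degrees. Pcna, the sliding clamp, stood at 41.8 FPKM against 33.5, 32.6 and 37.0 FPKM, a difference of 0.28. Of the 4 measured genes of the clamp and its loader 3 lay above the range, and of the 3 measured genes of primase and polymerases 1 lay above and 1 below. Cdc45, which joins the helicase at the fork, was under the limit, at 3.84 FPKM against 2.07, 1.82 and 2.40 FPKM, a difference of 0.65, with 13.3 FPKM in the control. Gmnn, the licensing inhibitor geminin, was at 7.10 FPKM against 4.35, 5.18 and 5.97 FPKM, a difference of 0.40.

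Promoters of 7 called genes that hold a searched motif are shown, because mitotic and replication genes are known for such promoter elements. Each stretch is 120 bases of the RefSeq promoter table (GRCm38.p6), read 5′ to 3′ on the gene's strand and ending at most 29 bases after the start site. The mitotic genes come first. Capitals mark CCAAT, the box bound by NF-Y, and TTTGAA, the cell cycle homology region (CHR) bound by DREAM and B-MYB, on either strand. They are the called and named mitotic genes that hold either motif in that part of their promoter.
Plk1 (chr7:122159345-122159464, plus strand): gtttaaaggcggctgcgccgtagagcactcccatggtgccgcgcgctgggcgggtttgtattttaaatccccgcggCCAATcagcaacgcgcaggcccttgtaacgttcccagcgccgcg
Ccnb1 (chr13:100786466-100786585, minus strand): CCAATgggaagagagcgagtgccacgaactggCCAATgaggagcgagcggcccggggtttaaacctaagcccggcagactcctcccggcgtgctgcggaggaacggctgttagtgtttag
Cdca3 (chr6:124830072-124830191, plus strand): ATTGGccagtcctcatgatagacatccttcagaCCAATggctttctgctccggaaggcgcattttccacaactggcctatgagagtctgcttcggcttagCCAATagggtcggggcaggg
Top2a (chr11:99024259-99024378, minus strand): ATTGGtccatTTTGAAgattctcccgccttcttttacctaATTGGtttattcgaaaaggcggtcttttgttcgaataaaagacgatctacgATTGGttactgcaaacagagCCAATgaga

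The replication genes called higher are shown with the E2F motif in capitals, which was searched as TTTCCCGC, TTTCGCGC, TTTGCCGC and TTTGGCGC on either strand. In Mcm5 a match on each strand overlaps the other.
Mcm5 (chr8:75109356-75109475, plus strand): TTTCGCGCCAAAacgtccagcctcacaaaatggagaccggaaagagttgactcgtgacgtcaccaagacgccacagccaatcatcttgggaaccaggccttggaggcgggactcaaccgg
Mcm3 (chr1:20820283-20820402, minus strand): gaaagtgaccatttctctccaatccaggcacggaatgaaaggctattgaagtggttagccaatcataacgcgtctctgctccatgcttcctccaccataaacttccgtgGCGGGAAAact
Uhrf1 (chr17:56304128-56304247, plus strand): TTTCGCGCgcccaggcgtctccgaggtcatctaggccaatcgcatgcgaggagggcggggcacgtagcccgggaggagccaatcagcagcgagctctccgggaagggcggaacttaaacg

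Over the whole 300 bases, TTTGAA was found in 45 of 65 promoters of 59 matched mitotic genes (69.2%), against 11.1% of 7334 promoters of measured coding genes and 17.9% of all 32851 promoters. CCAAT was found in 75.4% of the mitotic and 59.6% of the replication promoters, against 38.0% of those of measured coding genes and 37.4% of all. In the replication promoters shown, CCAAT is left in lower case. An E2F motif was found in 20 of 52 promoters of 43 matched replication genes (38.5%), against 4.21% and 2.26%. The shares of the lists cover all matched members, measured or not, and do not use the expression values. The set of measured coding genes does use them, through the limit of 5 FPKM. A match is not a bound site.

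Inhibitors of the cycle showed no common direction. Of 31 CDK inhibitor and p53 target genes 23 were measured, none was called, and 5 lay above and 4 below the range of the other pressures, with a median of 0.02. These counts are near the shares of all measured genes, 23.8% above and 17.6% below, and do not set the list apart. Cdkn1a, the inhibitor p21, was under the limit at 4.76 FPKM against 4.40, 3.66 and 3.16 FPKM, with 2.25 FPKM in the control. Cdkn2a, the locus of p16 and p19ARF, stood at 647 FPKM against 648, 765 and 670 FPKM at -80, -120 and -200 mmHg, just under the level at -80 mmHg.

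Glycolysis genes also lay mostly above the other pressures, by smaller differences. Of 29 enzymes and transporters 23 were measured and none was called. Of the 23, 16 lay above the range and none below it, beside 23.8% and 17.6% of all measured genes. The median was 0.12 at -160 mmHg, and -0.09, 0.01 and -0.06 at -80, -120 and -200 mmHg. The genes between glucose-6-phosphate and lactate had the wider differences, with a median of 0.23 over 13 measured genes, 11 of them above the range. The counting error was small beside the difference in the abundant Pgk1, Ldha and Aldoa, but not in Slc2a1 and Hk2.

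Pgk1, the phosphoglycerate kinase, stood at 450 FPKM at -160 mmHg against 331, 355 and 377 FPKM at -80, -120 and -200 mmHg, with 428 FPKM in the control. Ldha, the lactate dehydrogenase subunit of muscle type, stood at 286 FPKM against 220, 231 and 230 FPKM, with 296 FPKM in the control. Both were near the control's level, and the ratios were 1.27 (95% counting interval 1.25 to 1.29) and 1.26 (1.24 to 1.28). Aldoa, the aldolase, stood at 387 FPKM against 312, 337 and 340 FPKM, a difference of 0.23, with 433 FPKM in the control. Pgam1, Pfkl, Tpi1 and Eno1, named after their values were seen, differed by 0.33, 0.32, 0.31 and 0.31.

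Glucose entry differed less. Slc2a1, the glucose transporter GLUT1, stood at 31.6 FPKM against 30.3, 29.6 and 26.5 FPKM, a difference of 0.13. Hk2, the inducible hexokinase, stood at 9.49 FPKM, inside the range from 7.42 to 9.86 FPKM.

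HIF targets outside glycolysis moved unevenly. Of 42 genes 32 were measured and none was called. Of the 32, 16 lay above the range of the other pressures and 3 below it, beside 23.8% and 17.6% of all measured genes. The list's median was 0.13. Ndufa4l2, which was called higher and is induced by hypoxia, is not on this list. The list's medians at -80, -120 and -200 mmHg were -0.06, -0.03 and -0.03. Bnip3, which directs mitochondria to autophagy, came nearest to the size rule at 34.1 FPKM against 23.7, 23.6 and 25.0 FPKM, a difference of 0.48, with 40.1 FPKM in the control. Pdk1, the kinase that keeps pyruvate from the mitochondria, stood at 7.77 FPKM against 5.69, 5.94 and 5.37 FPKM, and Ndrg1, a stress-induced gene, at 23.6 FPKM against 17.0, 19.4 and 19.9 FPKM.

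Other well-known targets hardly differed. Vegfa, the angiogenic growth factor, stood at 81.5 FPKM against 79.5, 73.8 and 70.6 FPKM, a difference of 0.13. Adm, the peptide adrenomedullin, was under the limit at 1.67 FPKM against 2.005, 1.75 and 1.88 FPKM, while the control held 65.0 FPKM. Hif1a itself, named after its values were seen, lay inside the range with a difference of 0.06. The 3 targets below the range were Mt1, Lox and Vhl, with differences of -0.16, -0.15 and -0.07. Summed FPKM of the list was 2460 at -160 mmHg, inside 2404 to 2503 at the other pressures.

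**Figure D3:**
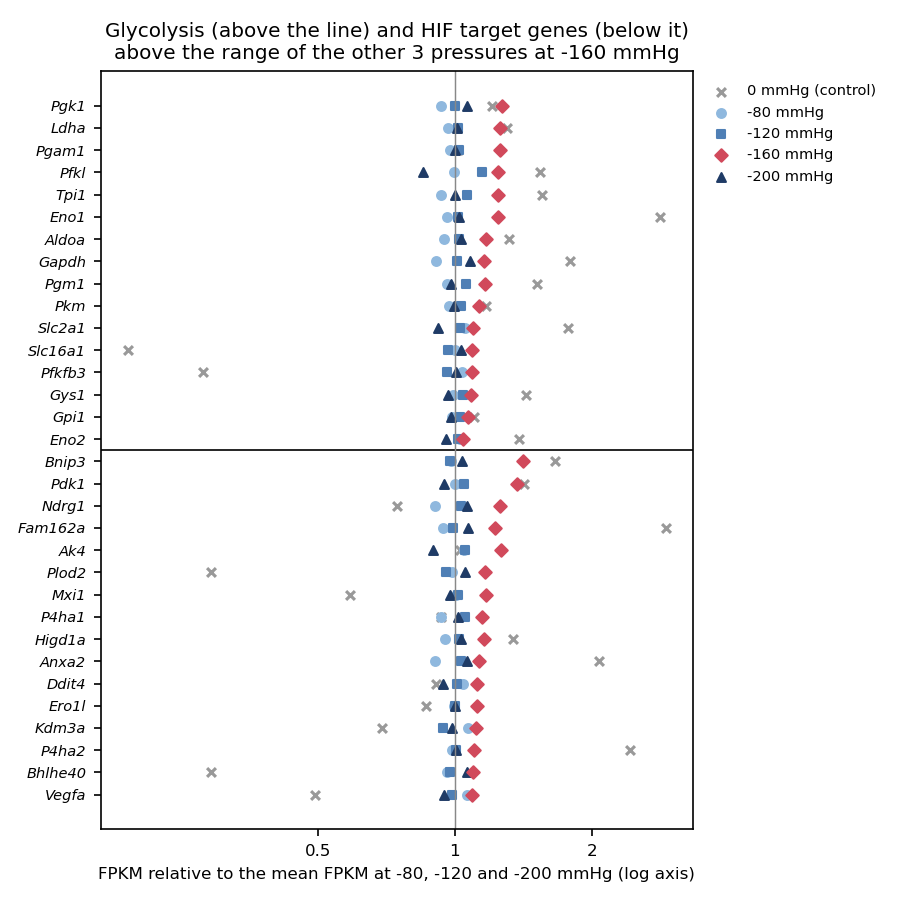
FPKM of each library relative to the mean FPKM at -80, -120 and -200 mmHg (log axis), for the 16 glycolysis genes (above the line) and the 16 HIF targets (below it) that lay above the range of the other 3 pressures at -160 mmHg. The control lies on both sides of the pressure libraries, and Bnip3 and Pdk1 have the highest ratios of the genes shown at -160 mmHg.

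The promoters of Pgk1 and Ldha, the measured enzymes named by rule with the widest differences, are shown with the core of the hypoxia response element in capitals. It was searched as ACGTG and GCGTG on either strand, and ACGTG overlaps the E-box CACGTG.
Pgk1 (chrX:106186950-106187069, plus strand): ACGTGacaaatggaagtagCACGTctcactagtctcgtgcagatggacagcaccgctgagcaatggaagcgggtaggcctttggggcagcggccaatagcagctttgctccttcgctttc
Ldha (chr7:46845659-46845778, plus strand): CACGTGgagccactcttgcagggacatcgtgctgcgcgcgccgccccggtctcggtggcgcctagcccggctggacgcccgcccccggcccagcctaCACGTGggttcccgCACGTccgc
This short core was present in 78.6% of 42 promoters of glycolysis genes and 75.0% of 40 promoters of the other HIF targets. It was also present in 65.0% of the promoters of measured coding genes and 43.8% of all promoters, so it separates the lists little.

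The 3 called coding genes outside the cell cycle lists have separate roles. Ndufa4l2, a mitochondrial protein induced by hypoxia, stood at 38.0 FPKM at -160 mmHg against 18.4, 25.4 and 27.3 FPKM at -80, -120 and -200 mmHg. The control was far lower at 2.13 FPKM. The spread of the other pressures was wide in this gene, a range of 0.54 on the log2 scale beside a gap of 0.46 to the nearest library. It was the 1 called coding gene of 15 in which that gap was not larger than the range.

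Tfrc, the transferrin receptor that brings iron into cells, stood at 10.9 FPKM against 6.84, 6.20 and 6.50 FPKM, with 5.31 FPKM in the control, so the -160 mmHg library was above all 4 others. Its ratio was 1.67 (95% counting interval 1.55 to 1.79). Tfrc is also the measured 1 of 15 erythroid and platelet markers, of which 6 had no read in any library. It is on the list of ribosome biogenesis and MYC targets, of which 31 genes were measured, with a median of 0.09. Of the 31, 14 lay above the range and none below, beside 23.8% and 17.6% of all measured genes. Crabp1, which binds retinoic acid in the cytosol, stood at 17.4 FPKM against 11.0, 10.1 and 11.9 FPKM, with 26.3 FPKM in the control.

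Smaller differences were seen in the lists of interferon response and ERK feedback genes, where no gene was called. Of 26 measured interferon response genes 14 lay above the range and 2 below, with a median of 0.11 that was 0.05 without the -80 mmHg library. The list's medians at -80, -120 and -200 mmHg were -0.18, 0.06 and -0.01. Rsad2, the antiviral enzyme viperin, had the widest difference of that list (0.37), with 11.7 FPKM against 8.93, 10.02 and 7.70 FPKM. Of 9 measured ERK feedback genes 4 lay above the range and 1 below, beside 23.8% and 17.6% of all measured genes. The medians of the BMP, Wnt, YAP/TAZ and TGF-beta lists were -0.01, 0.02, 0.01 and 0.07. Hmgcs1, the HMG-CoA synthase of cholesterol synthesis, differed by 0.20. Fos, an immediate early gene, differed by -0.02, with 53.6 FPKM inside 51.3 to 60.8 FPKM.

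**Figure D4:**
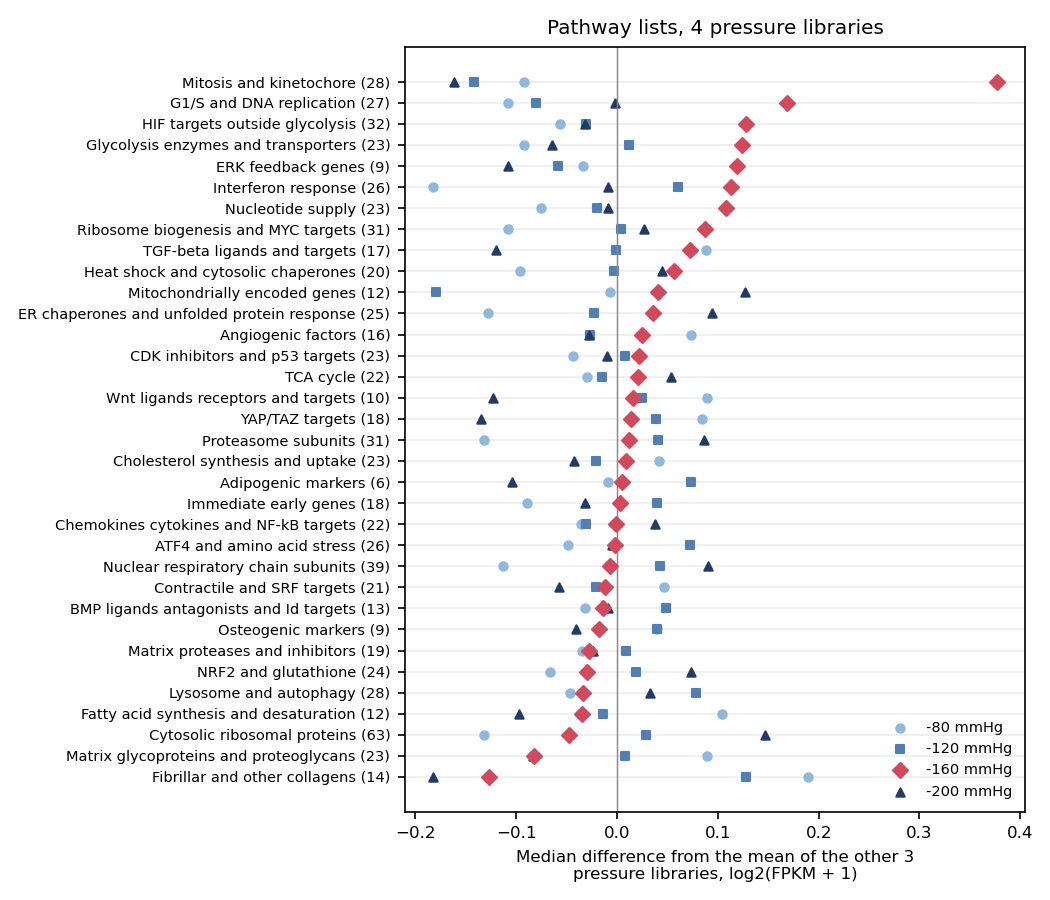
Median difference of the measured members of each pathway list (number in brackets) from the mean of the other 3 pressure libraries, log2 scale, for the 4 pressure libraries. At -160 mmHg the mitosis list stands alone at 0.38, followed by replication at 0.17, and the collagens are lowest at -0.13.

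Collagens were at the lower end. Over all measured genes 23.8% lay above the range of the other pressures and 17.6% below it. Of 14 measured collagen chains none lay above that range and 4 lay below it, and the median was -0.13. The median at -200 mmHg was lower, at -0.18, while -80 and -120 mmHg stood at 0.19 and 0.13. The -160 mmHg median depended on the libraries compared, at -0.07 without -80 mmHg and -0.21 without -200 mmHg. Col1a1, the main chain of bone collagen, stood at 455 FPKM at -160 mmHg, between 435 FPKM at -200 mmHg and 551 and 564 FPKM at -80 and -120 mmHg. The -160 and -200 mmHg libraries were thus both low in Col1a1. The widest collagen difference was that of Col4a2, a basement membrane chain, at -0.34, named after its values were seen.

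Bone genes gave a mixed picture. Of 9 measured osteogenic markers 3 lay above and 1 below the range, with a median of -0.02. Over all measured genes 23.8% lay above it and 17.6% below, so counts this small do not set the list apart. Spp1, the matrix protein osteopontin, stood at 117 FPKM at -160 mmHg against 100.3, 81.7 and 98.5 FPKM, a difference of 0.32, while the control held 1750 FPKM. Runx2, the osteoblast transcription factor, was the marker below the range, at 5.79 FPKM against 6.90, 6.11 and 6.22 FPKM. Alpl, alkaline phosphatase, was under the limit at 0.976 FPKM.

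The 3 coding genes called lower have few reads or mark other cells. Defb25, a beta-defensin, stood at 5.02 FPKM, from 25 reads, against 9.85, 8.63 and 14.6 FPKM. Prtn3, the neutrophil protease proteinase 3, stood at 3.63 FPKM against 6.49, 5.98 and 4.86 FPKM, with 0.596 FPKM in the control. The third was the predicted gene Gm20219, with a difference of -0.58. It had 74 reads at -160 mmHg against 137, 94 and 141 at -80, -120 and -200 mmHg. Prtn3 and Camp are the measured 2 of 14 granulocyte markers and both lay below the range. Summed FPKM of the 14 was 24.3 at -160 mmHg and 26.2 to 31.5 at the other pressures, and 6 of the 14 had no read in any library. Of 20 macrophage markers 3 were measured and 2 of them, Lyz2 and Cd68, lay below the range, and the summed FPKM was 69.0 against 71.2 to 76.4. Over all measured genes 17.6% lay below the range, and with 2 and 3 measured markers the counts are too small to set either list apart. Whether these markers came from granulocytes and macrophages was not tested, nor was any part of such cells in the other differences.

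Most other lower calls were short non-coding RNAs with few reads. Of 25 non-coding genes called lower 20 were under 200 nt, and their reads at -160 mmHg ran from 1 to 83 with a median of 7. A 95% counting interval below 1 held in 15 of the 25. Of 10 non-coding genes called higher 7 were pseudogenes, which can share reads with their parent genes. The interval lay above 1 in 8 of these 10 and in all 15 coding genes called higher. All these genes were called for their differences in the same reads, so the intervals show the counting error only and are no separate support.

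Among the lowest were 3 mitochondrial tRNA genes that lie side by side between mt-Nd4 and mt-Nd5, with differences of -2.62, -1.92 and -1.87 in mt-Ts2, mt-Tl2 and mt-Th. They are mt-Th (mitochondrial genome 11546 to 11612), mt-Ts2 (11613 to 11671) and mt-Tl2 (11671 to 11741). mt-Ts2 had 1 read at -160 mmHg and 12, 6 and 20 reads at -80, -120 and -200 mmHg. mt-Tl2 had 8 reads against 20, 46 and 42, and mt-Th had 3 reads against 12, 23 and 10. The read ratio of mt-Tl2 had a counting interval of 0.0894 to 0.457. The coding genes on both sides did not share the difference, with 0.00 in mt-Nd4 and 0.07 in mt-Nd5, and both lay inside the range of the other pressures. Over all 10 measured mitochondrial tRNAs the summed reads per 1000000 of the library total were 68.0 at -160 mmHg and 63.3, 68.6 and 81.0 at -80, -120 and -200 mmHg.

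GC content moved with the differences and is given beside them. Across the 7190 coding genes the median difference at -160 mmHg was 0.07 in the lowest of 5 equal bins by GC content of the longest transcript and -0.05 in the highest bin. The library at -120 mmHg ran the opposite way, from -0.10 to 0.12. The median GC content was 48.0% in the measured mitotic genes, 50.9% in replication genes, 52.8% in glycolysis genes and 50.4% in all measured coding genes. With the trend removed, the median was 0.37 for mitosis, 0.15 for replication and 0.13 for glycolysis. Of the 15 called coding genes 13 stayed called, and the difference of Col1a1 went from -0.17 to -0.10.

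**Figure D5:**
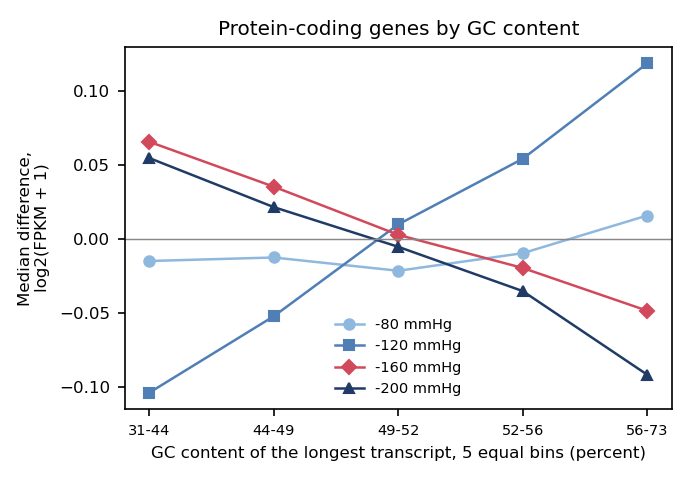
Median difference of protein-coding genes from the mean of the other 3 pressure libraries (log2 scale), in 5 equal bins by GC content of the longest transcript, for the 4 pressure libraries. The -160 and -200 mmHg lines fall and the -120 mmHg line climbs, by at most 0.12 from 0 in any bin.

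The thresholds cut through a continuous range. The coding genes just inside the size rule were Anln, Ccnb2 and Top2a at 0.52, 0.54 and 0.54. Those just outside were Ccdc58 at 0.50 when rounded, Cdc20, the activator of the anaphase-promoting complex, at 0.49, and the lamin Lmnb1 and Bnip3 at 0.48. At the limit of 5 FPKM, Ccnb1 was just inside with a mean of 5.08 FPKM, and Mki67 and Cenpm just outside with 4.996 and 4.95 FPKM. Between 1 and 5 FPKM, 22 further coding genes passed the size rule upwards, and 10 of them are on the mitosis, replication or nucleotide lists. Downwards, 9 coding genes passed it with the limit at 1 FPKM, against 3 at 5 FPKM. Over all 12101 genes at 1 FPKM, 147 were higher and 118 lower. Both limits count the -160 mmHg library itself, which favours genes that are high in it. The share among all coding genes between the limits was not computed.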

How the data were processed

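Values were taken as the authors deposited them, in FPKM for 5 libraries. The submitters' processing notes name HISAT2, SAMtools, featureCounts 1.5.0-p3 and rn6, a rat build, but the gene IDs are mouse Ensembl IDs. Whether counting used strand was not stated, so overlapping genes, antisense genes, paralogs and pseudogenes may share reads. Columns of other samples numbered 0.

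Symbols, biotypes and exon lengths came from GENCODE M21, and 55141 of 55401 IDs matched. FPKM multiplied by exon length gave whole reads (tolerance 0.01 reads) in 98.9% of genes of each library and 98.2% to 98.5% of the library totals. A value of 0 counts as whole, and 27896 of the 55401 genes had 0 FPKM in every library, so the share of genes is a weak check. Reads gave read numbers and exact Clopper-Pearson intervals, which cover the error of counting alone, because reads were not collapsed to molecules. The pseudocount of 1 makes differences of low genes smaller. No model was fitted and no test was run. The functions were tested on simulated reads.

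The rule for genes took the 12 largest named coding differences in each direction, up to 4 called members per pathway list and 26 genes fixed by name, of which some are not reported here. The comparison, the 46 lists and the role groups were chosen with earlier results of these data known. Promoters came from RefSeq tables. The alternatives were other pseudocounts, filters, scalings, size rules, comparison libraries and the removal of GC and length trends. The tools were matplotlib 3.10.9, scipy 1.17.1, pandas 2.3.3, numpy 2.4.6 and Python 3.11.15.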

Additional observations from a re-analysis of the deposited data

How the results depend on the processing

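With 1 library per pressure no setting replaces replication, and the counting error is widest in genes with few reads. Leaving out 1 comparison library gave 28 to 34 genes higher and 22 to 36 lower, of which 17 to 20 and 1 to 6 were coding. For genes higher, genes lower, coding genes higher and coding genes lower, in that order, the counts were 25, 28, 15 and 3 as reported.

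In the same order, a pseudocount of 5 gave 7, 17, 3 and 1, no filter 398, 215, 57 and 19, a limit of 1 FPKM 147, 118, 37 and 9, and a limit of 20 FPKM 2, 7, 1 and 0. A 1.5-fold rule gave 16, 20, 9 and 1, a 2-fold rule 0, 11, 0 and 0, a difference of 0.25 gave 187, 118, 154 and 64, and a gap over the range of the other 3 libraries 435, 263, 418 and 232. Coding genes alone numbered 15 higher and 3 lower. The size rule with the counting interval left 18 genes lower. A pseudocount of 0.1, upper-quartile scaling and the median of the other 3 libraries each gave 5 coding genes lower. Filters and size rules set by their own limits which genes can be called. The cause of the changes in the counts was not tested.

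The medians of these 4 lists stayed above 0 under every setting run. For mitosis the median of 0.38 became 0.41 with a pseudocount of 0.1, 0.28 with a pseudocount of 5 and 0.41 as a mean of members, and no member was left at 20 FPKM. For replication 0.17 became 0.12 with a pseudocount of 5, 0.12 at 20 FPKM and 0.21 as a mean. For glycolysis 0.12 became 0.21 at 20 FPKM and 0.15 as a mean. For HIF targets 0.13 became 0.10 with upper-quartile scaling and 0.10 with the GC trend removed. The removal of GC and length trends and the limit on the other 3 libraries, which left 13 coding genes higher, were added after the data were seen. No paired analysis was possible because each group has 1 library.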

Other observations

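Genes that act beside the 3 called genes outside the cell cycle lists were looked up after the values were seen. The iron storage subunits Fth1 and Ftl1 differed by -0.06 and -0.09 at -160 mmHg, and the iron-responsive regulator Ireb2 by 0.10, all inside the range of the other pressures, while Tfrc differed by 0.66. The iron importer Slc11a2 lay below that range, at 38.0 FPKM against 41.2, 41.2 and 40.1 FPKM at -80, -120 and -200 mmHg. Crabp2, the other retinoic acid binding protein of the pair, differed by -0.13 and lay inside the range, beside 0.61 in Crabp1. Ndufa4, the respiratory chain relative of Ndufa4l2, differed by -0.09 and lay inside the range, beside 0.68 in Ndufa4l2.

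Among other genes with a clear gap, Cxcl10, a chemokine induced by interferon, stood at 9.34 FPKM at -160 mmHg against 6.09, 7.30 and 6.52 FPKM, and Il33, an alarmin of stromal cells, at 10.02 FPKM against 7.56, 7.58 and 7.85 FPKM. Errfi1, a feedback inhibitor of the EGF receptor, stood at 57.9 FPKM against 46.1, 45.5 and 47.2 FPKM. Cd44, a hyaluronan receptor, stood at 18.3 FPKM against 14.5, 14.9 and 15.6 FPKM, and the control was at 18.5 FPKM. These 4 genes were picked for their differences, which were all under the size rule.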
